A study of Mus musculus with 4 samples.

Results

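Transcripts of 9 genes of the CD3 complex and of proximal T cell receptor (TCR) signalling were followed in circulating T cells and NK cells of tumor-bearing mice. The genes were taken by symbol: *Cd3d*, *Cd3e*, *Cd3g* and *Cd247*, the kinases *Lck* and *Zap70*, the adaptor *Lat*, and the membrane proteins *Cd5* and *Ptprc*. Each symbol had 1 row among the 27998 genes of the count tables, so that all 9 of 9 genes were found. Female C57BL/6 mice of 6 to 8 weeks were challenged subcutaneously with MC-38 colorectal tumor cells, and blood was drawn on day 18. The untreated mouse carried the tumor without therapy. The anti-PD-L1 mouse received blocking antibody (clone MIH-5) on days 10, 13 and 17. The anti-OX40/CpG mouse received the agonistic antibody OX86 together with the TLR9 ligand CpG on day 7, although its label names OX40 alone, and the PDOX mouse received both regimens. CD3+ T cells were enriched from blood by depletion of other cells and profiled with the 10x Chromium 3′ kit, with 1 library per treatment. The series describes 4 samples from 4 mice, so treatment, mouse and library cannot be told apart.

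The TCR itself has no enzymatic activity. CD3γ, CD3δ and CD3ε, the products of *Cd3g*, *Cd3d* and *Cd3e*, and the ζ chain encoded by *Cd247* surround the antigen-binding chains and carry immunoreceptor tyrosine-based activation motifs (ITAMs). LCK, bound to CD4 or CD8, phosphorylates these motifs, ZAP70 docks on them and phosphorylates the scaffold LAT, and LAT gathers the enzymes that pass the signal on. CD5 is an inhibitory receptor set by the strength of TCR signals, and CD45, encoded by *Ptprc*, is the phosphatase that keeps LCK ready and is present on all leukocytes. NK cells use the ζ chain, LCK and ZAP70 behind receptors of their own, whereas CD3γ, CD3δ and CD3ε mark T cells.

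The 3 CD3 chain genes form a cluster on mouse chromosome 9. In RefSeq coordinates of GRCm38.p6, *Cd3g* spans chr9:44969572-44980431 on the minus strand, *Cd3d* chr9:44981769-44987052 on the plus strand and *Cd3e* chr9:44998735-45009663 on the minus strand. *Cd3g* and *Cd3d* start back to back with 1337 bases between them, and 11682 bases separate *Cd3d* from *Cd3e*. The other members are scattered: *Cd247* (chr1:165779952-165871153), *Zap70* (chr1:36761798-36782821) and *Ptprc* (chr1:138062859-138175756) lie on chromosome 1, *Lck* on chr4:129548344-129573641, *Lat* on chr7:126363827-126369705 and *Cd5* on chr19:10718107-10739026. *Cd247* overlaps the annotation of *Pou2f1* and 2 further genes, and *Lck*, *Zap70* and *Lat* each overlap 1 small annotated gene. The promoter windows of the CD3 chain genes are shown because these genes varied together across the subsets described below, and that of *Cd5* because it varied apart from them. Each runs from 250 bases before to 50 bases after an annotated start (RefSeq, GRCm38.p6). For *Cd3d*, *Cd3e* and *Cd5* this start lies inside the gene span printed above, not at its edge. Capitals mark GGAAG, a longer form of the GGAA core that ETS factors bind, or its reverse complement. Copies of GGAA without the final G are neither marked nor counted, and the *Cd3g* window holds such copies.
Cd3g (chr9:44980382-44980681, minus strand): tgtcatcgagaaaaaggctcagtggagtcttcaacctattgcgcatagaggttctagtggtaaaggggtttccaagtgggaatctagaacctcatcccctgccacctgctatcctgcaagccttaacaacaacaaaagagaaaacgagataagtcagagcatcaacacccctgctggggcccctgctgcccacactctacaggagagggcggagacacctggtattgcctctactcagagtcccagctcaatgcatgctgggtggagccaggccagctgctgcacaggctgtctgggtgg
Cd3d (chr9:44981536-44981835, plus strand): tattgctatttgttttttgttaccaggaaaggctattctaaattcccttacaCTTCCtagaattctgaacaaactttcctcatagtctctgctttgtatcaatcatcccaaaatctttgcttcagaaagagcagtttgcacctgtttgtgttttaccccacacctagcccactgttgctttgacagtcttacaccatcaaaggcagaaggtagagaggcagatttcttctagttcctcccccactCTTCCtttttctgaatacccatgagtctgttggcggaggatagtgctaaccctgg
Cd3e (chr9:45009562-45009861, minus strand): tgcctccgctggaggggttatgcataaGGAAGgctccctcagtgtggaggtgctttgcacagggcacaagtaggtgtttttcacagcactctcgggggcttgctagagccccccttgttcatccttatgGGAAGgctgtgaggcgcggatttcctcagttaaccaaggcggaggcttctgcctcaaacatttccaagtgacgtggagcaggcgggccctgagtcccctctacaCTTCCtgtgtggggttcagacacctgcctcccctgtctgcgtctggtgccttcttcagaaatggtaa
Cd5 (chr19:10738925-10739224, minus strand): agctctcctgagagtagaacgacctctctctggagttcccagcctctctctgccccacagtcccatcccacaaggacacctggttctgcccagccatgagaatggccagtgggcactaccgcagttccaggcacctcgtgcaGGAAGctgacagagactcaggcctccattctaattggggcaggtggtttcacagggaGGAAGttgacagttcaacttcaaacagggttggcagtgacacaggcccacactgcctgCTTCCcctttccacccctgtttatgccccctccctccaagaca
The *Cd3d* window held 2 matches to GGAAG, the *Cd3e* and *Cd5* windows 3 each and the *Cd3g* window 0. At least 1 such match on either strand was found in 71.4% of 32851 mouse promoter windows of the same length. The RUNX motif TGTGGT, found in 16.8% of windows, and the TATA box TATAAA, found in 13.6%, had 0 matches on either strand in these 4 windows.

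After removal of mitochondrial, ribosomal protein and hemoglobin genes, 5299 of 5434 deposited cells had 200 or more detected genes. The libraries kept 784 to 1559 cells, with median depths of 1439 to 1628 unique molecular identifiers (UMIs) per cell. Levels are given as UMIs of a gene per 10000 UMIs of a subset, and the genes were not compared with each other in level, since the 3′ protocol does not capture every transcript equally well. No member was used for gating. CD8 T cells had a *Cd8a* or *Cd8b1* UMI and no *Cd4* UMI, CD4 T cells the reverse, and NK cells had no coreceptor UMI and UMIs of at least 2 of 10 NK receptor genes. The gates held 2109 CD8 T cells, 874 CD4 T cells and 96 NK cells, while 238 cells with UMIs of both coreceptors were left out. T cells were split by 8 naive markers, such as *Lef1*, *Ccr7* and *Tcf7*, and 12 effector markers, such as *S100a4*, *Nkg7* and *Ccl5*. Values for the libraries are always given with untreated first, then anti-PD-L1, then anti-OX40/CpG, then PDOX. There were 191, 355, 279 and 94 naive CD8 T cells and 37, 120, 236 and 275 effector CD8 T cells. Naive CD4 T cells numbered 90, 159, 151 and 99, and effector CD4 T cells 11, 18, 92 and 178. A further 522 CD8 and 76 CD4 T cells met neither limit. The NK gate held 14, 6, 58 and 18 cells, and the 6 cells of the anti-PD-L1 library were too few for the tests. *Thy1*, a T cell surface gene, had UMIs in 79.3% of CD8 and 69.6% of CD4 cells. Some cells in both T cell gates also carried antigen-presenting and myeloid genes, as given below. *Tyrobp*, the NK and myeloid adaptor gene, had UMIs in 76.0% of gated NK cells. Hemoglobin genes took 7.99% of the untreated library's UMIs and 0.344% to 1.70% of the others'. Across libraries, 16 barcodes occurred more than once, in 32 cells.

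The CD3 chain genes were detected in most T cells and less often in other cells. *Cd3d* had UMIs in 94.3% of naive CD8, 92.4% of effector CD8, 91.2% of naive CD4 and 91.0% of effector CD4 T cells, at median depths of 1496 to 1987 UMIs. The share was 21.9% of NK cells, 4.51% of 133 B cells at a median depth of 1193 UMIs, and 10.7% of 103 monocytes at 3096 UMIs. B cells and monocytes should lack the gene and give the background level of detection, whose source was not tested, since free RNA and doublets were not separated. *Ptprc*, which every leukocyte expresses, behaved differently, with UMIs in 70.7% to 77.8% of cells of the 4 T cell subsets, 76.0% of NK cells, 52.6% of B cells and 87.4% of monocytes. At least 1 UMI of all 3 CD3 chain genes was found together in 58.3% of naive and 61.8% of effector CD8 T cells, 54.7% of naive and 68.6% of effector CD4 T cells, 8.33% of NK cells and 0.971% of monocytes. The median cell of the T cell subsets held 7 to 9 UMIs of the 3 genes, and the median NK cell, B cell and monocyte held 0. Effector T cells had more UMIs per cell than naive ones (median 1936 against 1565 UMIs in CD8 and 1987 against 1496 in CD4), so shares were also taken after thinning each cell to 750 UMIs. *Cd3d* then had UMIs in 83.2% of naive and 75.8% of effector CD8 T cells, and in 78.2% of naive and 72.4% of effector CD4 T cells.

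**Figure D1:**
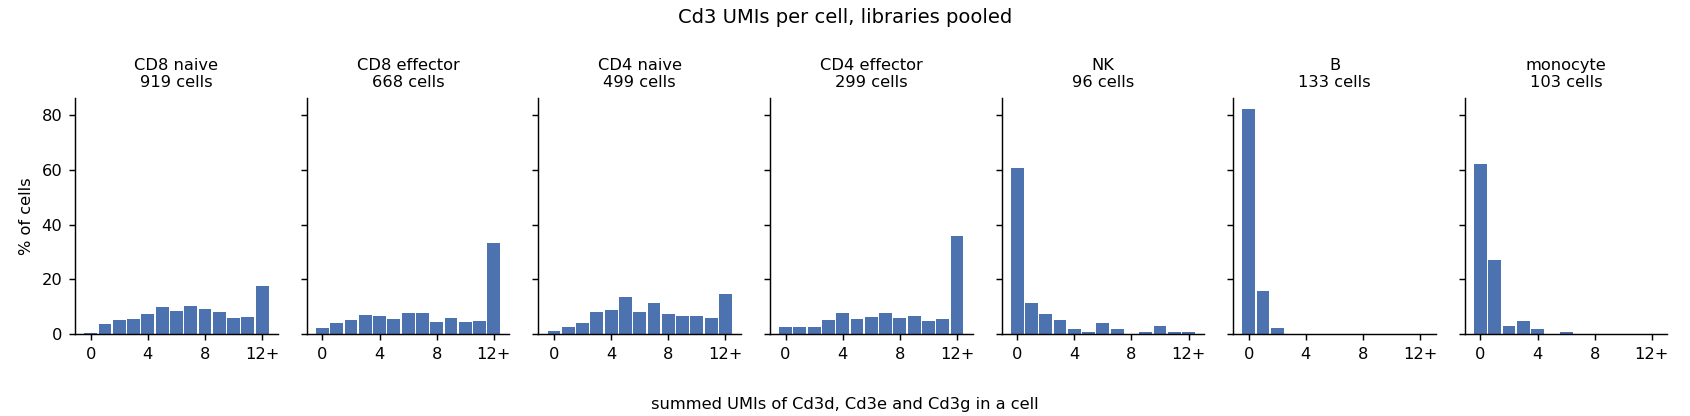
Summed UMIs of *Cd3d*, *Cd3e* and *Cd3g* per cell (horizontal axis, 12+ meaning 12 or more) against the percentage of cells (vertical axis) in each gate, with the 4 libraries pooled and no thinning. T cell subsets spread over the whole axis, with 33.4% of effector CD8 and 35.8% of effector CD4 T cells at 12 or more UMIs, while 60.4% of NK cells, 82.0% of B cells and 62.1% of monocytes held 0.

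**Figure D2:**
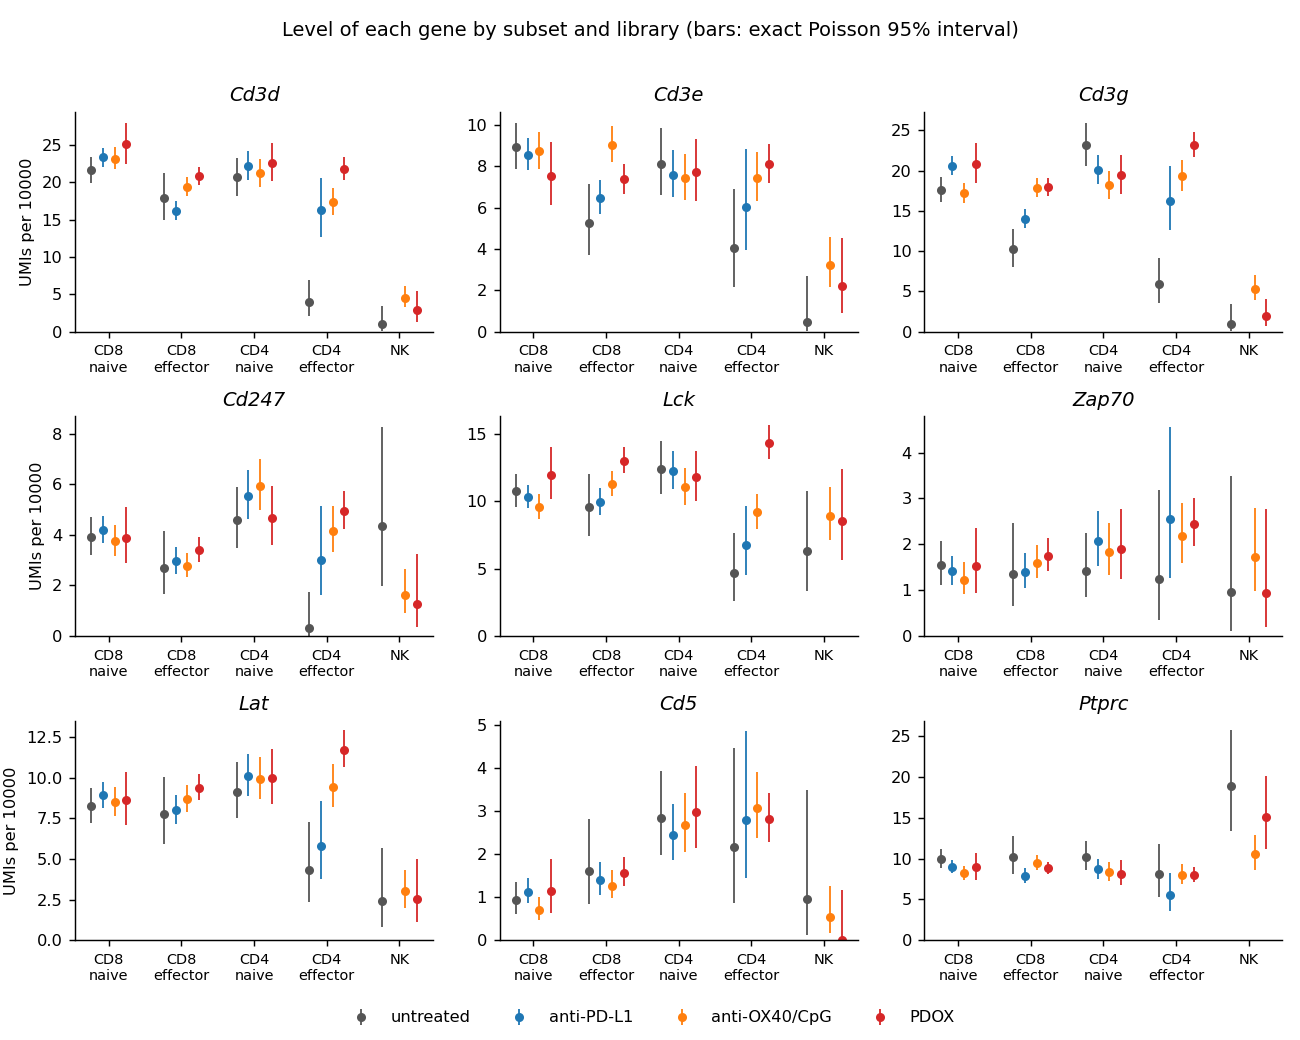
Level of each of the 9 genes in UMIs per 10000 (vertical axes from 0) by subset (horizontal axis) and library (color), with exact Poisson 95% intervals that cover counting error only; subsets under 10 cells are not drawn. The CD3 chain genes and *Lat* sit lower in NK cells than in most T cell profiles, *Cd5* is higher in CD4 than in CD8 T cells, and the untreated effector CD4 profile of 11 cells stands apart.

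Naive and effector CD8 T cells were then compared to ask whether the receptor complex and its first signalling steps differ with differentiation. *Cd5* rose in effector CD8 T cells, and the other 8 genes did not pass the test. In naive CD8 T cells of the 4 libraries *Cd5* stood at 0.930, 1.13, 0.710 and 1.14 UMIs per 10000, and in effector cells at 1.61, 1.40, 1.27 and 1.57. The effector value was higher in 4 of 4 libraries and the groups did not overlap. The mean was 1.46 ± 0.161 (SD, n = 4) against 0.978 ± 0.204, a 1.57-fold difference (log2 0.65, SE 0.17, edgeR quasi-likelihood test with the library as a block, adjusted p = 0.0057). In cells thinned to 750 UMIs, 11.6% of effector and 7.39% of naive CD8 T cells had a *Cd5* UMI. The call was lost without the anti-OX40/CpG library (log2 0.54, adjusted p = 0.072), with DESeq2 (0.68, adjusted p = 0.17) and in thinned cells (0.64, adjusted p = 0.13 in edgeR). In this comparison 19.1% of 5401 genes tested passed, beside 1 of the 9 members.

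The CD3 subunits had slightly lower values in effector CD8 T cells without passing the test. *Cd3d* stood at 21.6, 23.3, 23.1 and 25.1 UMIs per 10000 in naive cells of the 4 libraries, and at 17.9, 16.2, 19.4 and 20.8 in effector cells. *Cd247* stood at 3.90, 4.19, 3.74 and 3.89 in naive and 2.69, 2.95, 2.76 and 3.39 in effector cells. For both genes the effector value was lower in 4 of 4 libraries and the groups did not overlap. How many of all genes show the same order was not counted. The fitted differences of -0.24 (SE 0.11, edgeR adjusted p = 0.11) and -0.32 (SE 0.12, edgeR adjusted p = 0.074) missed the threshold. *Cd3d* passed only under stricter limits on the states (log2 -0.30, edgeR adjusted p = 0.045). For *Cd3g*, naive values were 17.6, 20.6, 17.2 and 20.8, and effector values 10.2, 14.0, 17.9 and 17.98, with overlap between the groups. The *Cd3g* difference was -0.24 (SE 0.12) and that of *Cd3e* -0.14 (SE 0.12), with *Cd3e* means of 8.45 ± 0.616 in naive and 7.04 ± 1.60 in effector cells. In CD8 T cells that met neither state limit, *Cd3d* stood at 23.4 to 24.7 across libraries.

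The transcripts of the kinases, *Lat* and *Ptprc* did not pass the test between naive and effector CD8 T cells, and their intervals do not show equal levels. *Lck* had means of 10.7 ± 1.002 and 10.96 ± 1.57 UMIs per 10000 (n = 4 each), and its 95% interval on the log2 scale ran from -0.08 to 0.37. *Zap70*, at 1.43 ± 0.142 and 1.52 ± 0.187, had an interval from -0.08 to 0.56. *Lat*, at 8.58 ± 0.272 and 8.48 ± 0.723, had one from -0.15 to 0.30, and *Ptprc*, at 9.02 ± 0.700 and 9.11 ± 0.986, one from -0.12 to 0.32. Each of these 4 genes was higher in effector cells in 2 of 4 libraries, so their order changed from one mouse to the next. Effector CD8 profiles also held more NK receptor transcripts (10 genes, 1.57 to 6.18 UMIs per 10000 against 0 to 0.153 in naive profiles) and more of 9 antigen-presenting and myeloid genes such as *H2-Aa*, *Cd74* and *Tyrobp* (6.08 to 24.1 against 2.22 to 7.29). Cells with 3 or more of these 9 genes numbered 43 of 668. Without them the *Cd5* difference was 0.68 (edgeR adjusted p = 0.0053), and *Cd3d* and *Cd247* stood at -0.16 and -0.27.

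**Figure D3:**
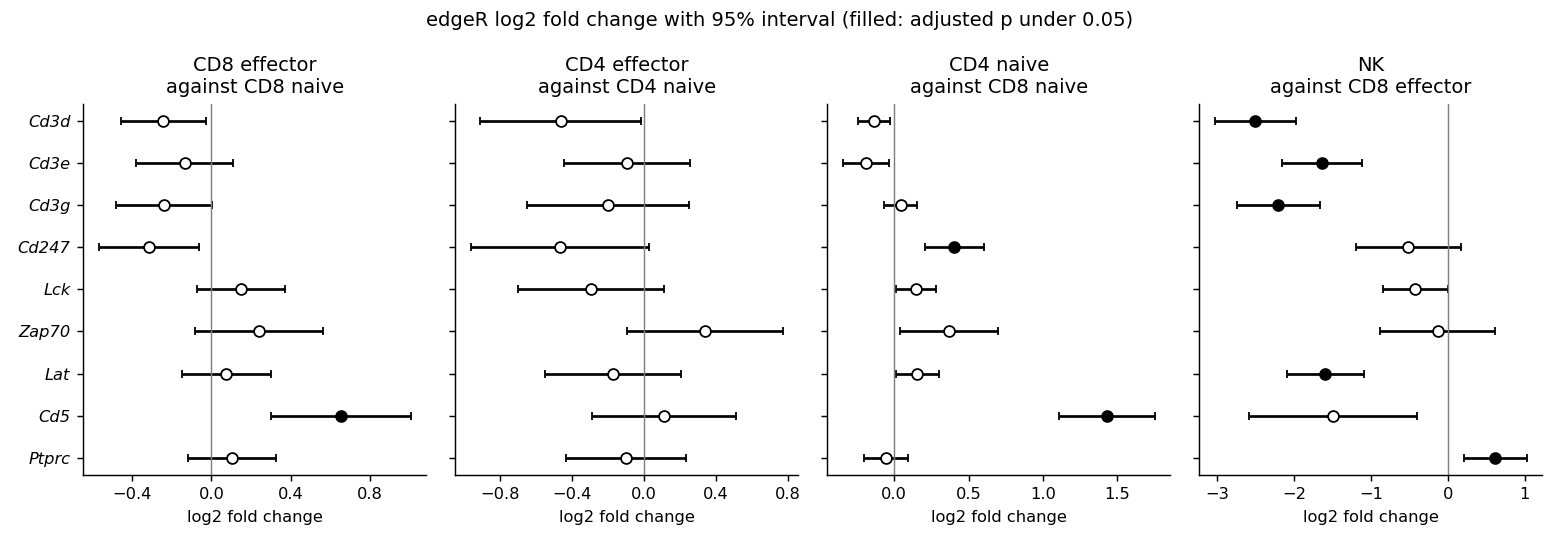
edgeR log2 fold changes (horizontal axes, scaled for each panel) of the 9 genes with 95% intervals in 4 comparisons of subsets; filled points had an adjusted p under 0.05. *Cd5* is filled in the CD8 state and lineage comparisons, *Cd247* in the lineage comparison, and *Cd3d*, *Cd3e*, *Cd3g*, *Lat* and *Ptprc* in the NK comparison.

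In CD4 T cells, 0 of the 9 genes passed the test between effector and naive cells, where 15.7% of 3017 genes did. By unadjusted edgeR p, 1 of the 9 was under 0.05, and 0 passed with DESeq2. *Cd3d* stood at 20.6, 22.2, 21.2 and 22.5 UMIs per 10000 in naive CD4 T cells of the 4 libraries, and at 4.03, 16.2, 17.4 and 21.7 in effector cells. Its difference was -0.46 (SE 0.21, edgeR adjusted p = 0.16). *Cd247* stood at 4.57, 5.53, 5.94 and 4.65 in naive and 0.310, 3.02, 4.16 and 4.94 in effector cells (log2 -0.47, SE 0.24, edgeR adjusted p = 0.21). In both genes the PDOX library showed nearly the same level in the 2 states, and the untreated library the widest gap. *Lck* had a difference of -0.29 (SE 0.19), *Cd3g* -0.20 (SE 0.21), *Lat* -0.17 (SE 0.18) and *Cd3e* -0.09 (SE 0.17). *Zap70* had one of 0.34 (SE 0.21), with effector values above naive ones in 3 of 4 libraries. *Cd5*, which differed between CD8 states, was at 2.74 ± 0.228 in naive and 2.71 ± 0.382 in effector CD4 T cells (log2 0.11, SE 0.19). *Ptprc* was lower in effector cells of 4 of 4 libraries without overlap, at 7.43 ± 1.24 against 8.85 ± 0.955 (log2 -0.10, SE 0.16, edgeR adjusted p = 0.75).

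The untreated effector CD4 profile rested on 11 cells and stood apart from the other 3 libraries. Its 9 antigen-presenting and myeloid genes summed to 156 UMIs per 10000, against 4.68 to 6.03 in the other effector CD4 profiles, with all 9 genes detected. Its NK receptor genes summed to 6.21, against 0.464 to 1.14, and its 5 neutrophil genes to 4.65, from 1 gene, against 0 to 0.189. Of its 11 cells, 4 carried 3 or more of the antigen-presenting genes, and these 4 held 40.8% of its UMIs. In those 4 cells *Cd3d* stood at 1.52 and *Lck* at 6.08 UMIs per 10000, and 3 of them had no CD3 chain UMI. In the other 7 cells *Cd3d* stood at 5.77, *Cd3e* at 5.24, *Cd3g* at 8.39 and *Lck* at 3.67, with no *Cd247* UMI among 19066. In effector CD4 T cells of the anti-PD-L1 library *Cd3d* stood at 16.2, *Cd3e* at 6.03 and *Cd3g* at 16.2. The cause of the low untreated values was not tested. Without the untreated library the *Cd3d* difference was -0.21, that of *Cd247* -0.31 and that of *Cd3g* 0.07, and 0 of the 9 genes passed.

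Whether the step from naive to effector differed between the lineages was tested as an interaction over the 4 libraries. None of the 9 genes passed, at 0.216% of 4626 genes tested; DESeq2 passed none of them either, and 1 of the 9 had an unadjusted edgeR p under 0.05. *Cd5* had a difference of 0.56 (CD8 minus CD4, SE 0.24, 95% interval 0.07 to 1.05, edgeR adjusted p = 0.61), and *Lck* one of 0.43 (SE 0.22). The other 7 genes lay between -0.09 (*Zap70*) and 0.25 (*Ptprc*), with standard errors of 0.17 to 0.27. The rise of *Cd5* in CD8 T cells is therefore not shown to differ from its course in CD4 T cells.

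Naive T cells of the 2 lineages were compared directly, so that the unequal shares of effector cells in the libraries did not enter. *Cd5* and *Cd247* were higher in naive CD4 T cells, which makes 2 of the 9 genes beside 9.09% of 3839 genes tested. *Cd5* stood at 2.84, 2.45, 2.67 and 2.98 UMIs per 10000 in naive CD4 T cells of the 4 libraries, above every naive CD8 value given above. The difference was 2.69-fold (log2 1.43, SE 0.16, edgeR adjusted p = 6.2e-16), and it passed in each alternative tried, with log2 values of 1.27 to 1.65. In cells thinned to 750 UMIs, 16.9% of naive CD4 and 7.39% of naive CD8 T cells had a *Cd5* UMI. *Cd247*, the ζ chain, was higher by 0.40 (SE 0.10, edgeR adjusted p = 0.0015), with means of 5.18 ± 0.673 against 3.93 ± 0.188 (n = 4 each), higher in 4 of 4 libraries and without overlap. The *Cd247* call was lost without the anti-OX40/CpG library (0.29, edgeR adjusted p = 0.16), without the library block (0.38, edgeR adjusted p = 0.085) and with DESeq2 (0.38, adjusted p = 0.61).

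The remaining 7 genes did not pass the test between naive CD4 and CD8 T cells. *Cd3d* stood at -0.14 (SE 0.05) and *Cd3e* at -0.19 (SE 0.08) on the log2 scale, CD4 relative to CD8, with *Cd3d* lower in CD4 cells of 4 of 4 libraries. *Cd3g* was at 0.04 (SE 0.06), with a 95% interval from -0.07 to 0.15. *Lat* was at 0.15 (SE 0.07), with means of 9.78 ± 0.435 in CD4 and 8.58 ± 0.272 in CD8 cells, higher in 4 of 4 libraries and without overlap. *Lck* was at 0.15 (SE 0.07), *Zap70* at 0.37 (SE 0.17) and *Ptprc* at -0.06 (SE 0.08). By unadjusted edgeR p, 7 of all 9 genes were under 0.05, counting *Cd5* and *Cd247*, the only 2 that also passed the adjustment.

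NK cells were set against effector CD8 T cells, which share their cytotoxic genes, in the 3 libraries with at least 10 gated NK cells. The CD3 chain genes and *Lat* were lower in NK cells. *Ptprc* was higher, with a call that held in 7 of 18 alternatives. *Cd247*, *Lck*, *Zap70* and *Cd5* did not pass. Among the 9 genes 4 were thus lower and 1 higher, beside 6.02% lower and 5.95% higher of the 1495 genes tested. *Cd3d* stood at 0.968, 4.504 and 2.84 UMIs per 10000 in NK cells of the untreated, anti-OX40/CpG and PDOX libraries, and at 17.9, 19.4 and 20.8 in effector CD8 T cells (log2 -2.50, SE 0.26, edgeR adjusted p = 6.9e-10). *Cd3g* stood at 0.968, 5.36 and 1.90 in NK cells against 10.2, 17.9 and 17.98 (log2 -2.20, SE 0.27). For *Cd3e* the NK values were 0.484, 3.22 and 2.21 against 5.24, 9.05 and 7.37 (log2 -1.63, SE 0.26). In each of these genes the anti-OX40/CpG library had the highest NK value, and no NK value reached the effector CD8 values. *Lat*, the scaffold below ZAP70, stood at 2.42, 3.003 and 2.53 against 7.80, 8.68 and 9.40 (log2 -1.60, SE 0.25, edgeR adjusted p = 4.1e-06).

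The ζ chain and both kinases were detected in NK cells and did not pass the test. *Cd247* stood at 4.36, 1.61 and 1.26 UMIs per 10000 in NK cells against 2.69, 2.76 and 3.39 in effector CD8 T cells, with overlap and a 95% interval of the log2 difference from -1.20 to 0.17. *Lck* stood at 6.29, 8.90 and 8.53 against 9.55, 11.3 and 13.03 (log2 -0.42, 95% interval -0.84 to 0.003, edgeR adjusted p = 0.24). *Zap70* stood at 0.968, 1.72 and 0.948 against 1.34, 1.59 and 1.75, with an interval from -0.88 to 0.62. These intervals are wide, since the NK profiles rest on 14 to 58 cells, and they do not show equal levels. *Cd5* had 2, 5 and 0 UMIs in the NK cells of the 3 libraries, where 0 counts in PDOX allow up to 0.948 UMIs per 10000, and its difference of -1.49 (SE 0.54) had an edgeR adjusted p of 0.068. With subsets of 5 or more cells, which brings in all 4 libraries, *Cd5* passed as lower in NK cells (log2 -1.67, edgeR adjusted p = 0.048). *Ptprc* stood at 18.9, 10.6 and 15.2 in NK cells against 10.2, 9.48 and 8.82 (log2 0.62, SE 0.20, edgeR adjusted p = 0.036). The *Ptprc* call held in 7 of 18 alternatives. It was lost without the untreated library (0.41), without the PDOX library (0.49) and in thinned cells (0.10), with edgeR adjusted p values of 0.41, 0.34 and 0.87. It was also lost with subsets of 5 or more cells (0.47, edgeR adjusted p = 0.20) and with DESeq2 (0.65, adjusted p = 0.30), among other settings.

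The NK gate was not uniform for CD3 transcripts. Of its 96 cells, 58 had no UMI of *Cd3d*, *Cd3e* or *Cd3g*, and of these 58 had *Tyrobp* UMIs, 57 had *Fcer1g* UMIs and 3 had UMIs of *Cd6*, *Cd28*, *Trat1* or *Themis*, which are T cell genes. A further 27 cells had 2 or more CD3 UMIs, of which 7 had *Tyrobp*, 19 had *Fcer1g* and 11 had 1 of the 4 T cell genes. Of these 27 cells, 22 came from the anti-OX40/CpG library, where they made up 22 of 58 gated cells, and 1, 2 and 2 came from the untreated, anti-PD-L1 and PDOX libraries. When only the 73 NK cells with a *Tyrobp* UMI were kept, the differences from effector CD8 T cells were -3.84 for *Cd3d*, -2.90 for *Cd3e*, -3.52 for *Cd3g* and -2.05 for *Lat*. In the 58 cells without CD3 UMIs, *Lck* stood at 7.16, *Cd247* at 1.97, *Zap70* at 1.04, *Lat* at 1.66 and *Ptprc* at 12.04 UMIs per 10000. Over all gated NK cells, at a median depth of 1621.5 UMIs, *Lck* had UMIs in 69.8% of cells, beside 12.8% of B cells and 19.4% of monocytes. The shares were 27.1%, 1.504% and 9.71% for *Cd247* and 17.7%, 2.26% and 5.83% for *Zap70*. In cells thinned to 750 UMIs they were 43.5%, 6.67% and 3.06% for *Lck*, 14.1%, 1.67% and 5.10% for *Cd247*, and 9.41%, 2.50% and 0% for *Zap70*.

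The adaptor chains that serve NK receptors showed the reverse pattern. *Fcer1g*, the ITAM chain of Fc receptors, had a mean of 37.2 UMIs per 10000 in NK cells and 2.53 in effector CD8 T cells (log2 4.62, SE 0.34, edgeR adjusted p = 2.2e-14). *Tyrobp*, which encodes DAP12, had means of 45.2 and 2.91 (log2 4.52, SE 0.31). *Hcst*, which encodes DAP10, did not pass (log2 -0.23) and had UMIs in 67.7% of NK cells and 84.0% of effector CD8 T cells. *Syk*, the kinase related to *Zap70*, was too low to be tested and had UMIs in 7.29% of NK cells, 1.20% of effector CD8 T cells and 42.1% of B cells.

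Around the 9 genes, a list of 44 further genes of the TCR pathway, of which 41 were in the tables, was described in the same comparisons. Between effector and naive CD8 T cells 16 of 37 tested pathway genes passed, 13 higher and 3 lower in effector cells, beside 19.1% of all genes, and the median log2 difference of the 37 was 0.15 beside -0.01 over all genes. The largest rises were those of *Dok2* (1.96, SE 0.19) and *Lax1* (1.56, SE 0.29), which encode inhibitory adaptors, and of *Sla* (1.22, SE 0.21), whose product lowers TCR levels. The *Sla* call in CD8 T cells held in 14 of 15 alternatives and was lost in thinned cells (0.88, edgeR adjusted p = 0.063). Among the falls were those of *Rasgrp1* (-0.93, SE 0.16), the activator of RAS downstream of LAT, and of the kinase gene *Txk* (-0.33, SE 0.12). The *Txk* call in CD8 T cells held in 5 of 15 alternatives and was lost with DESeq2 (-0.33, adjusted p = 0.40), in thinned cells (-0.16, edgeR adjusted p = 0.62), without the 5% of cells with most UMIs (-0.058, edgeR adjusted p = 0.82) and without the anti-PD-L1, anti-OX40/CpG or PDOX library (edgeR adjusted p of 0.18, 0.14 and 0.15). In CD4 T cells 7 of 32 tested pathway genes passed, beside 15.7% of all genes. *Sla* (1.33, SE 0.28), *Dok2* (1.20, SE 0.27) and the phosphatase gene *Ptpn22* (0.97, SE 0.23) rose, and *Rasgrp1* (-0.93, SE 0.23) and *Txk* (-0.88, SE 0.19) fell. The CD4 calls of *Rasgrp1* and *Ptpn22* were lost with DESeq2 (adjusted p = 0.089 each) and in thinned cells (edgeR adjusted p of 0.10 and 0.092). They held in 12 and 11 of 15 alternatives. Without the anti-OX40/CpG library *Dok2* (0.95), *Ptpn22* (0.93), *Rasgrp1* (-0.71) and *Txk* (-0.83) did not pass, with edgeR adjusted p values of 0.12, 0.088, 0.17 and 0.087, and without PDOX *Ptpn22* did not (0.83, edgeR adjusted p = 0.094). Of the 32 genes tested in both lineages, 6 passed in both, all 6 in the same direction, which is 6 of the 7 CD4 genes. Some of the 16 CD8 genes, such as *Lax1*, were not tested in CD4 T cells, so 6 of 16 is not a share of genes tested in both. Of all 3003 genes tested in both, 346 passed in both, again all in the same direction. Among these 3003 genes that is 48.5% of those that passed in CD8 and 74.4% of those that passed in CD4 T cells. Each of these tests used the same 4 libraries, and the interaction passed 0 of 36 pathway genes in edgeR and in DESeq2, with 5 at an unadjusted edgeR p under 0.05.

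**Figure D4:**
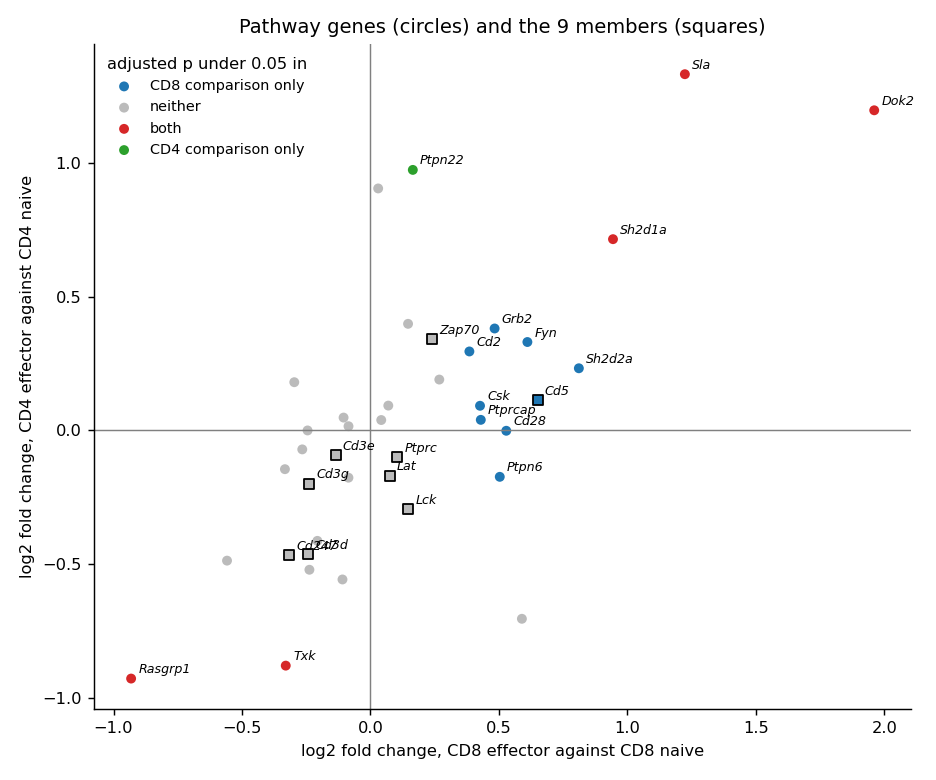
edgeR log2 fold changes of effector against naive cells in CD8 T cells (horizontal axis) and CD4 T cells (vertical axis) for 31 of the 32 pathway genes tested in both (circles) and the 9 members (squares); color shows where the adjusted p was under 0.05. *Dok2* and *Sla* are high in both lineages and *Rasgrp1* and *Txk* low, whereas the members lie between -0.47 and 0.65 on both axes.

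Between naive CD4 and CD8 T cells, 9 of 33 tested pathway genes passed, 6 higher and 3 lower in CD4 cells, beside 9.09% of all genes. The costimulatory receptor gene *Cd28* was higher by 0.96 (SE 0.11), *Dok2* by 0.83 (SE 0.26) and *Sit1*, an adaptor that restrains signalling, by 0.82 (SE 0.19). *Ptpn22* (-0.96, SE 0.16), *Sla2* (-0.79, SE 0.26) and *Themis* (-0.57, SE 0.20) were lower. With DESeq2 the calls of *Dok2*, *Sit1*, *Sla2* and *Themis* were lost (adjusted p of 0.63, 0.40, 0.70 and 0.83). Those of *Sla2* and *Themis* were also lost in edgeR without the untreated (adjusted p of 0.11 and 0.16), anti-OX40/CpG (0.19 and 0.29) or PDOX library (0.12 and 0.17) and held in 7 of 13 and 6 of 14 alternatives. The *Dok2* call held in 8 of 13 and was lost without the anti-PD-L1, anti-OX40/CpG or PDOX library (edgeR adjusted p of 0.066, 0.068 and 0.11), and that of *Sit1* without anti-OX40/CpG (0.068). Between NK cells and effector CD8 T cells 5 of 21 tested pathway genes passed, beside 179 of all 1495 genes. *Dok2* (1.58, SE 0.28) and *Txk* (0.70, SE 0.22) were higher in NK cells. *Themis* (-3.40, SE 0.72), *Cd28* (-2.38, SE 0.42) and *Rhoh* (-1.04, SE 0.28) were lower. The *Txk* call held in 5 of 18 alternatives and was lost without the untreated (0.56), anti-OX40/CpG (0.98) or PDOX library (0.60), in thinned cells (0.26) and without cells of 3 antigen-presenting genes (0.42), with edgeR adjusted p values of 0.27, 0.074, 0.22, 0.62 and 0.69, and with DESeq2 (0.78, adjusted p = 0.33). The *Rhoh* call held in 14 of 18 and was lost without the anti-OX40/CpG or PDOX library (edgeR adjusted p of 0.057 and 0.13) and with DESeq2 (adjusted p = 0.16).

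The treatments were compared only within a state, since the share of effector cells differed widely among the libraries. With 1 library per treatment there is no replicate check and no test, and the intervals below cover counting error only. Ratios of levels to the untreated library were counted as large at 1.5 or more, or at 1/1.5 or less. In naive CD8 T cells 0 of 9 genes passed this limit with anti-PD-L1 or anti-OX40/CpG, and 0 of the 8 with enough UMIs with PDOX, where 9.55%, 12.4% and 12.6% of all genes did. *Cd3d* in naive CD8 T cells had ratios of 1.08 (95% interval 0.9798 to 1.19), 1.07 (0.967 to 1.19) and 1.16 (1.01 to 1.33) in the 3 treated libraries. In naive CD4 T cells 0 of 9, 0 of 9 and 0 of 8 genes passed the limit, where 11.6%, 12.6% and 11.0% of all genes did. *Cd3g* had the lowest ratio there, 0.786 (0.676 to 0.915) with anti-OX40/CpG, and *Zap70* the highest, 1.46 (0.835 to 2.66) with anti-PD-L1. When gating required 2 coreceptor UMIs, 33, 35 and 21 naive CD4 T cells were left in the 3 treated libraries and 19 in the untreated one. Of the genes with enough UMIs there, 3 of 6, 1 of 6 and 0 of 5 passed the limit, beside 18.3%, 24.4% and 14.0% of all genes.

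In effector CD8 T cells 0, 2 and 1 of 9 genes passed the limit in the 3 treated libraries, beside 28.6%, 25.8% and 32.0% of all genes, so no larger share of the members than of all genes did. *Cd3g* was at 10.2 UMIs per 10000 in the untreated library and had ratios to it of 1.37 (95% interval 1.08 to 1.77) with anti-PD-L1, 1.75 (1.38 to 2.24) with anti-OX40/CpG and 1.76 (1.39 to 2.25) with PDOX. *Cd3e* had ratios of 1.24 (0.879 to 1.78, which includes 1), 1.73 (1.24 to 2.46) and 1.41 (1.01 to 2.01). *Cd3d* by contrast had ratios of 0.906 to 1.16, and *Lck*, the coreceptor kinase, of 1.05, 1.18 and 1.36 (1.07 to 1.77). The ratios of *Ptprc* were 0.773, 0.928 and 0.863. With mitochondrial, ribosomal protein and hemoglobin genes kept in the total, 5 of 9 passed with PDOX, beside 36.7% of all genes. The untreated profile holds 37 cells, of which 5 carried 3 or more antigen-presenting genes, against 22 of 120, 8 of 236 and 8 of 275 in the treated libraries. In its other 32 cells *Cd3g* stood at 11.4, and in the corresponding cells of the treated libraries at 14.8, 18.5 and 18.8.

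In effector CD4 T cells the ratios are set by the untreated profile of 11 cells described above. With anti-PD-L1, 3 genes had enough UMIs and 2 of them passed the limit, beside 43.2% of all genes. With anti-OX40/CpG and with PDOX 7 of 9 genes passed, all higher, beside 54.6% and 54.7% of all genes in either direction. Genes in general also stood higher, with median log2 ratios of 0.49 and 0.52 over all genes, beside 0.98 and 1.43 for the members. Among the 7, *Cd247* rested on 1 untreated UMI. *Zap70* rested on 4, and its intervals of 0.640 to 6.70 and 0.742 to 7.39 include a ratio of 1. *Cd3d* had ratios of 4.03, 4.30 and 5.39, and *Ptprc* of 0.690, 0.997 and 0.996. Among the 3 treated libraries alone, effector CD4 *Lck* stood at 6.73 with anti-PD-L1 (95% interval 4.51 to 9.67), 9.18 with anti-OX40/CpG (7.93 to 10.6) and 14.4 with PDOX (13.1 to 15.7), and *Lat* at 5.80, 9.46 and 11.7. The anti-PD-L1 profile holds 18 cells. *Cd3d*, *Cd3e*, *Cd3g* and *Cd247* stood in the same order of libraries, and *Zap70*, *Cd5* and *Ptprc* did not. How many of all genes stand in this order was not counted, so it is not shown to be particular to the members. In naive CD4 T cells of the same libraries *Lck* stood at 12.2, 11.04 and 11.8 and *Lat* at 10.1, 9.93 and 9.96.

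**Figure D5:**
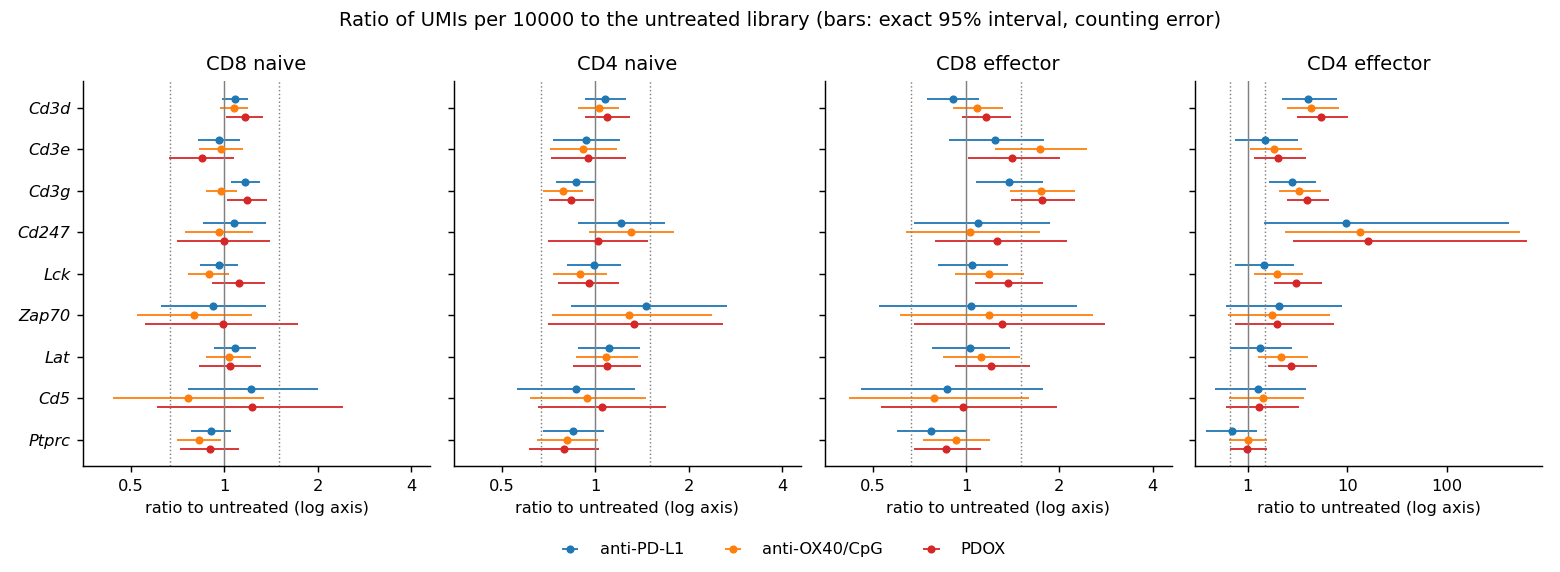
Ratio of UMIs per 10000 in each treated library to the untreated library (horizontal log axes; the effector CD4 panel has a wider range) for the 9 genes in 4 T cell subsets, with exact 95% intervals for counting error; dotted lines mark 1.5 and its inverse. All points of the naive panels lie inside the dotted lines, *Cd3g* and *Cd3e* reach past them in effector CD8 T cells, and the effector CD4 panel is shifted to the right against the 11 untreated cells.

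The likeness of patterns was described over the 19 profiles of library and subset with 10 or more cells, as Pearson correlations of log2(CPM + 10) among 3528 genes, which share libraries and depth. The genes most like *Cd3e* were its neighbors *Cd3g* (r = 0.96) and *Cd3d* (r = 0.95), then *Tia1*, *Prkcq* and *Abhd8* (r = 0.94 each). *Cd247* was less similar to them over all profiles, in which NK cells take part (r = 0.53 with *Cd3d*, 0.47 with *Cd3g* and 0.29 with *Cd3e*), than over the 16 T cell profiles (r = 0.95, 0.90 and 0.78). Its most similar genes were *Sept6*, *Pgs1*, *Etfa*, *Ndufab1* and *Rexo2* (r = 0.90 to 0.93). *Cd5* was most similar to *Ass1* (r = 0.92), *Cd6* (r = 0.90), which encodes the related receptor CD6, *Ifi27l2a*, *2810001G20Rik* and *Faah*. *Ptprc* was most similar to *Fnbp1*, *Tmed5*, *Slc50a1*, *Ptp4a3* and *Stra13* (r = 0.84 to 0.90).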

How the data were processed

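Single-cell RNA sequencing of blood T cells gave 4 libraries, 1 per treatment. The authors made them with the 10x Chromium 3′ v2 kit and Cell Ranger, and deposited raw UMI counts per gene and cell without normalization; the submitters' processing notes name mm10 and Seurat 2. *Trac*, *Trbc1* and *Trbc2* were not analysed here. The deposited libraries held 2392650 to 4969885 UMIs.

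From these counts, 13 mitochondrial, 101 ribosomal protein and 10 hemoglobin genes were left out and cells with 200 or more detected genes were kept, which left 51.3% to 61.8% of the deposited UMIs. No doublet caller was run. With N and E the summed UMIs of the naive and effector markers, naive cells had N of 2 or more and E of at most N/2, and effector cells E of 4 or more and E of at least 2N. Within 1 UMI of these limits lay 312 and 67 CD8 T cells and 50 and 12 CD4 T cells. Cells with 2 or more genes of a B cell, monocyte, neutrophil, platelet or erythroid list were left out of the gates. Counts were summed per library and subset (at least 10 cells) and tested with edgeR 4.0.16 in R 4.3.3 (quasi-likelihood F test, two-sided, TMM, filterByExpr, library as a block, which pairs subsets of 1 mouse), with Benjamini-Hochberg adjustment over all genes tested and a threshold of 0.05. The test was run on simulated counts with the same spread for every gene. The planted changes were larger than the differences of the members between naive and effector cells, so it does not show how well such small differences are found. Levels carry exact Poisson, shares exact Clopper-Pearson and ratios exact conditional binomial 95% intervals, which cover counting error only; ratios used genes with 50 or more UMIs in both libraries together. Replicates are libraries of mice under different treatments. Order across libraries and overlap between groups were described gene by gene, without the share of all genes that show the same. All 9 members and, of the pathway list, the 3 highest and 3 lowest passing genes per comparison are named where reported, and all 4 ITAM-related genes for NK cells; *Sh2d1a* for CD4 T cells, and *Thy1*, were chosen after their values were seen. A further way to set the T cell states and 1 pathway gene, which the counts include, are not reported here. The members and lists were chosen with earlier results of these data known.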

Additional observations from a re-analysis of the deposited data

How the results depend on the processing

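Of the calls, those of *Cd5* between naive CD4 and CD8 T cells and of *Cd3d*, *Cd3e*, *Cd3g* and *Lat* in NK cells held under every alternative reported. Between effector and naive CD8 T cells the number of members called was 0 with DESeq2, 0 in cells thinned to 750 UMIs, 2 under stricter state limits (*Cd3d* added) and 0 to 1 when each library was left out, with 0 without anti-OX40/CpG. Between naive CD4 and CD8 T cells it was 1 with DESeq2, 1 with no replicate block and 1 to 2 when each library was left out, with 1 without anti-OX40/CpG. The fit without the library block, which ignores the pairing of subsets by mouse, changed 2 member calls, *Cd247* between naive lineages and *Ptprc* in NK cells, lost, among the pathway genes named, *Txk* (CD8 states), *Sla2* and *Themis* (naive lineages) and *Rhoh* and *Txk* (NK), gave 12, 8, 0, 5 and 3 pathway genes called in the CD8 states, CD4 states, interaction, naive lineages and NK cells, against 16, 7, 0, 9 and 5 with the block, and moved the count of all genes called from 349 to 147 and from 179 to 116 there. Over all alternatives the count of all genes called ran from 407 to 1292 (CD8 states), 198 to 675 (CD4 states), 0 to 59 (interaction), 69 to 470 (naive lineages) and 84 to 415 (NK), with the lowest from DESeq2 except for the CD4 states and the interaction (without anti-OX40/CpG). Without the anti-OX40/CpG library the count was 198 for the CD4 states, 216 for the naive lineages, 99 for NK cells and 0 for the interaction, with 2, 4, 3 and 0 pathway genes, and without anti-PD-L1 it was 684 for the CD8 states. Without PDOX it was 307 for the CD4 states. Pathway genes called ran from 5 to 17, 2 to 9, 0 to 0, 2 to 9 and 3 to 10. *Ptprc* in NK cells had adjusted p values of 0.019 to 0.96 over its alternatives. In the NK profiles low counts limit *Cd5*, with 2, 5 and 0 UMIs in the 3 libraries.

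Directions that turned belong to differences that passed in neither fit, and the causes were not tested. In thinned cells, CD4 *Cd3g* was 0.20, *Lat* 0.0076 and *Cd5* -0.0022, interaction *Cd3e* 0.052 and *Cd247* -0.012, and *Ptprc* between naive lineages 0.070. Without the 5% of cells with most UMIs, CD4 *Cd3e* was 0.080, *Cd3g* 0.15, *Lck* 0.027 and *Lat* 0.018, and interaction *Cd3d* -0.0089 and *Cd247* -0.089. Under stricter limits, CD4 *Cd3g* was 0.046, and interaction *Cd3d* -0.046, *Cd3e* 0.0038, *Cd247* -0.037 and *Zap70* 0.050. With no low-count filter, interaction *Cd3g* was 0.034. Without cells of 3 antigen-presenting genes, CD4 *Cd3g* was 0.082, interaction *Cd3e* 0.042 and *Zap70* 0.10, and NK *Zap70* 0.0048. Leaving out each library gave CD4 *Cd3g* -0.43 to 0.073, interaction *Cd3d* -0.013 to 0.36, *Cd3e* -0.12 to 0.047, *Cd3g* -0.19 to 0.14 and *Zap70* -0.22 to 0.034, naive-lineage *Cd3g* -0.042 to 0.10 and NK *Zap70* -0.17 to 0.055.

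Members past 1.5-fold of untreated, counted here over all 9 whatever their UMIs, moved as follows. In naive CD8 T cells PDOX gave 1 with gates at 2 UMIs and 1 in thinned cells. In naive CD4 T cells gates at 2 UMIs gave 5 with anti-PD-L1, 2 with anti-OX40/CpG and 1 with PDOX, and thinning gave 1 with PDOX. In effector CD8 T cells anti-PD-L1 gave 1 with all genes kept, 1 with gates at 2 UMIs and 1 in thinned cells, and PDOX gave 5 with all genes kept, 2 without the 5% of cells with most UMIs, 2 with gates at 2 UMIs and 3 in thinned cells. Effector CD4 ratios of *Zap70* were 0.915 with anti-PD-L1 and 0.969 with anti-OX40/CpG without the 5% of cells, and with gates at 2 UMIs 0 with anti-PD-L1. With those gates the ratios of *Cd3e*, *Zap70* and *Lat* were 0.564, 0.530 and 0.843 with anti-OX40/CpG and 0.575, 0.524 and 0.853 with PDOX. The untreated effector CD4 profile then held only 2 cells, and the treated ones 2, 38 and 68. Ratios to 2 cells, under the limit of 10 cells used for the tests, do not show a change of direction. No ratio of *Cd247* in effector CD4 T cells could be formed without the 5% of cells, with gates at 2 UMIs or in thinned cells, where the untreated value was 0. The removal of NK cells with *Trac* UMIs was not run; removal by *Cd6*, *Cd28*, *Trat1* and *Themis*, the restriction to *Tyrobp*+ NK cells, the use of all CD8 T cells with at least 5 cells and the removal of cells with antigen-presenting genes were chosen after seeing the data.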
